A study of Mus musculus with 9 samples.

Results

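Epigonadal white fat (eWAT, white adipose tissue of the pad next to the ovary) was compared between mice that carried a human breast tumour and mice that received only vesicles shed by the same tumour cells. The members were all genes of this comparison, tumour bearing mice 17, 21 and 22 against EV-injected mice 36, 37 and 41, less the 135 gene IDs that share a symbol with another ID. Of 53700 gene IDs in the series, 17860 had enough counts to be tested, in 6 of its 9 libraries. The question was which genes outside skeletal muscle, ovary and the cell cycle differed between fat exposed to a growing tumour and fat exposed to its vesicles alone.

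All 9 mice were female NSG mice (NOD/SCID/IL2Rγ-null, lacking T, B and natural killer cells), labelled wild type, and their fat was taken at a time the labels give as week 12 without saying from when it is counted. The tumour bearing mice carried orthotopic MDA-MB-231 tumours, grown from cells placed in the mammary fat pad. The EV mice received extracellular vesicles of MDA-MB-231 cells through the tail vein, 10 injections over 5 weeks. Untreated mice 4, 7 and 10 helped to estimate the spread and are given beside the others, not as the control of this contrast. MDA-MB-231 is 1 line of human triple-negative breast cancer cells, so the effects of tumours in general were not measured. The study's methods state that tumour bearing mice were housed singly and the others in groups, so housing and tumour cannot be told apart. Nothing in the labels says that the libraries were prepared together, and p-values measure the spread between these mice only.

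White fat is made up of adipocytes, which store triglyceride and release it by lipolysis, and of endothelial cells, macrophages, fibroblasts and mesothelium around them. Interleukin-6 family cytokines act on fat through the receptor chains Il6ra and Il6st and the transcription factor Stat3, which induces its own inhibitor Socs3. Venules admit leukocytes by showing adhesion molecules such as P-selectin and Icam1 on their endothelium. In bulk tissue, fewer cells of a type and less RNA per cell cannot be told apart.

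The libraries held 20097743 to 26149300 expected counts, and no pair of the 6 compared libraries was alike within counting error (chi-square over its degrees of freedom 29.7 to 353). The pieces of tissue differed in makeup, and this touched the contrast throughout. Inha, which encodes a hormone subunit of granulosa cells, stood at 0.539 to 2.67 CPM in the tumour bearing libraries (counts relative to the library total, scaled by TMM factors, as are all levels below), against 1425, 2.68 and 1410 CPM in EV 36, 37 and 41, so that EV 36 and EV 41 held ovary. Adipoq, the adipocyte hormone adiponectin, was at 4365, 2977 and 3602 CPM in tumour bearing mice 17, 21 and 22, against 729, 4436 and 634 CPM in EV 36, 37 and 41. EV 37 was thus the only EV library with Adipoq near the tumour bearing level, and it is given alone below wherever a result rests on EV 36 and EV 41. Myh11, the myosin of smooth muscle, was at 159, 179 and 566 CPM in the tumour bearing libraries and at 554, 148 and 571 CPM in EV 36, 37 and 41. The untreated libraries differed too, with Adipoq at 4395, 132 and 335 CPM in untreated 4, 7 and 10. In the same order Inha was at 1.97, 4.16 and 1388 CPM, and Myh11 at 195, 5398 and 742 CPM. Untreated 4 was thus the only untreated library rich in fat, and untreated 10 held ovary.

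Skeletal muscle transcripts stood on the other side. Ckm, the creatine kinase of skeletal muscle, was at 336, 811 and 356 CPM in the tumour bearing libraries, against 3.77, 0.389 and 1.86 CPM in the EV libraries. Acta1, its actin, was at 814, 1839 and 938 CPM in the tumour bearing libraries, against 0.646, 59.9 and 2.39 CPM in the EV libraries. All 18 defining muscle markers lay above every EV and untreated library, and their summed level was 3619, 9755 and 4496 CPM in tumour bearing 17, 21 and 22, against 21.8 to 94.2 CPM in EV libraries. Whether muscle was taken with the pad or arose otherwise was not tested.

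**Figure D1:**
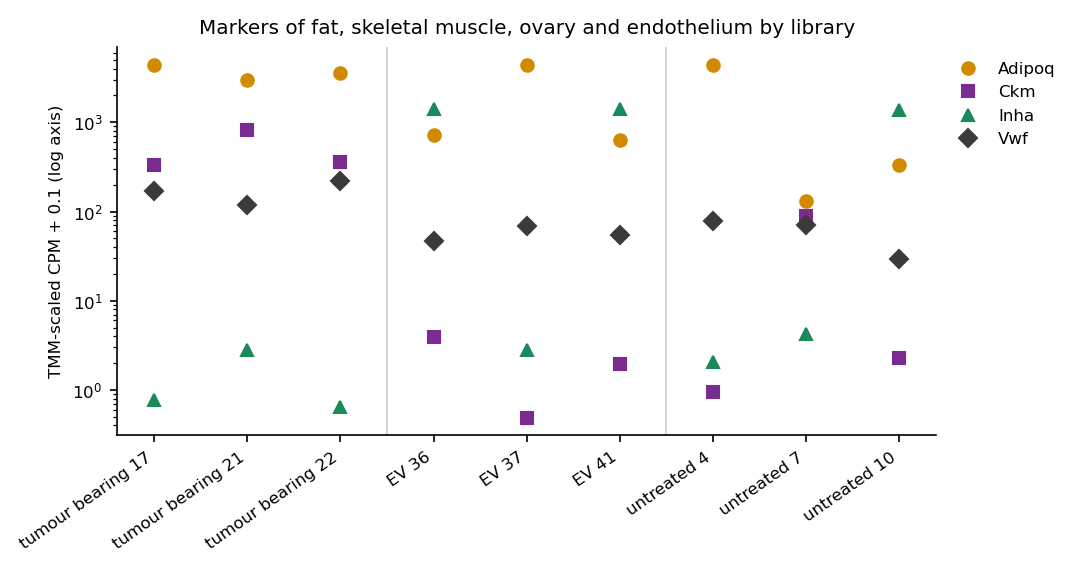
Levels of Adipoq (adipocytes), Ckm (skeletal muscle), Inha (ovary) and Vwf (endothelium) in each of the 9 libraries, as TMM-scaled CPM plus 0.1 on a log axis. Ckm reaches 336 CPM or more only in the tumour bearing libraries, with untreated 7 next at 88.9 CPM. EV 36, EV 41 and untreated 10 carry Inha at 1388 CPM or more. The tumour bearing libraries, EV 37 and untreated 4 are alike in Adipoq.

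By edgeR's quasi-likelihood test, 40 genes rose in tumour bearing eWAT (0.224% of those tested) and 1 fell (0.0056%), at a Benjamini-Hochberg adjusted p under 0.05. Of the 40, 38 belonged to a list of 289 skeletal muscle genes. No gene of the ovary list (126 tested) or the cell cycle list (218 tested) was called, although their median log2 fold changes were -6.13 and -2.40 against -0.06 over all genes, and both medians came close to 0 against EV 37 alone (0 and -0.11). Outside the 3 lists, 2 genes rose and 1 fell. Without the edgeR threshold, 2510 genes had an unadjusted p under 0.05, against 893 that chance gives, of which 532 higher and 1636 lower ones lay outside the 3 lists. Of these 532 genes, 453 were above EV 37 in all 3 tumour bearing mice (85.2%, against 23.8% of all genes), and of the 1636, 1121 were below it (68.5%, against 24.5%), shares that the use of EV 37 in the p-values makes high. DESeq2 called 244 genes higher (1.37%) and 637 lower (3.57%) on the same counts, 126 and 535 of them outside the 3 lists. The number of edgeR calls fell with any library of the contrast left out. It was 0 without EV 36 (962 genes at an unadjusted p under 0.05), 2 without EV 41 and 11 without EV 37. It was 16, 11 and 9 without tumour bearing 17, 21 and 22. Such fits also have fewer mice in a group, and this was not separated from the part of single libraries.

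**Figure D2:**
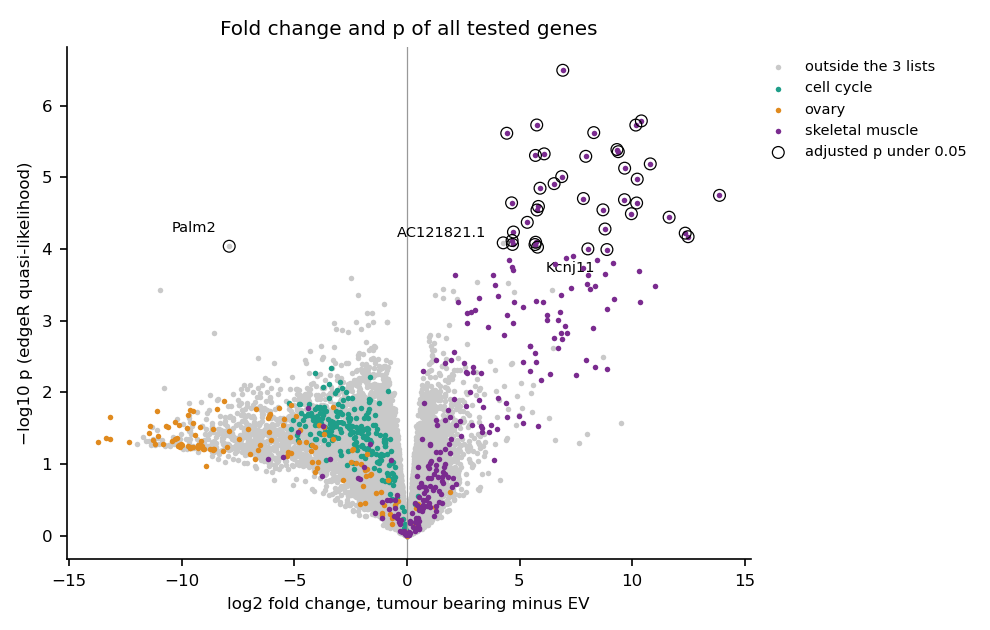
Log2 fold change (tumour bearing minus EV, x axis) against −log10 p of edgeR (y axis) for the 17860 tested genes, coloured by list, with rings around the 41 called genes. The rings on the right are skeletal muscle genes but for Kcnj11 and AC121821.1, the single ring on the left is Palm2, and the ovary and cell cycle genes lie mostly on the left without a ring.

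Kcnj11, the pore of the ATP-sensitive potassium channel, rose in tumour bearing fat. Its level was 5.28, 7.79 and 4.80 CPM in tumour bearing 17, 21 and 22, against 0.108, 0.043 and 0.152 CPM in EV 36, 37 and 41 (log2 fold change 5.80 ± 0.83 SE, edgeR adjusted p = 0.043). The groups did not overlap, and the 3 untreated libraries were at 0.281 CPM or less. The channel is also abundant in skeletal muscle, whose markers stood apart in the same libraries, and the part of muscle in the Kcnj11 value was not tested. With 1 library left out, its log2 fold change stayed at 5.47 to 6.18 and its edgeR adjusted p ran up to 0.32. The gene was below the level set for naming and was chosen after its values were seen.

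AC121821.1, an unnamed transcript, rose as well, at 3.15, 4.07 and 2.79 CPM in tumour bearing mice against 0.251, 0.173 and 0.0758 CPM in EV mice (log2 fold change 4.28 ± 0.60 SE, edgeR adjusted p = 0.0416). It was at 4.95, 3.43 and 7.33 CPM in the untreated mice, so here the EV libraries were the ones that stood apart. Its edgeR adjusted p ran up to 0.202 with 1 library left out. With a term for the sets into which the deposited score columns fall, neither AC121821.1 nor Kcnj11 was called (edgeR adjusted p = 0.105 and 0.128). It too was chosen after its values were seen.

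Palm2, which encodes a membrane-anchored paralemmin protein, was the 1 gene called lower, and its call rests on EV counts that other gene IDs repeat. Palm2 had 7.34, 0 and 3.26 counts in tumour bearing 17, 21 and 22, against 829.52, 1560.79 and 908.84 in EV 36, 37 and 41 and 0, 2.79 and 0 in untreated mice. The gene IDs of Akap2 and Pakap, which belong to the same locus, carried the same 3 EV numbers but differed from Palm2 in the other groups. Where several gene IDs had 1 symbol, their counts were identical for 1 of 40 symbols in the tumour bearing columns, 34 of 46 in the EV columns and 0 of 46 in the untreated columns, which is why such IDs were left out. Palm2 escaped because its copies have other symbols. Without the 13 tested IDs that repeat EV counts, an alternative chosen after seeing the data, edgeR called 40 genes higher and 0 lower, with 2503 genes at an unadjusted p under 0.05, and with the term for score sets the adjusted p of Palm2 was 0.111.

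The genes with the lowest p outside the 3 lists, at a mean of at least 5 CPM and with no overlap between the groups, did not pass edgeR's test. In a fit of the tumour bearing and EV libraries only, edgeR called Pde4dip, Lrrc8c and Hoxd4 among them (adjusted p = 0.00696, 0.0384 and 0.042). Non-overlap by itself was common, at 11.6% of all tested genes for higher and 13.4% for lower ones. The 10 higher genes had edgeR adjusted p of 0.0979 to 0.261 and DESeq2 adjusted p of 4.36e-07 to 0.00263. Each was also above every untreated library, and 3.08% of all genes lay above all 6 EV and untreated libraries. Among the untreated libraries, only untreated 4 was near the tumour bearing level of Adipoq.

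Spon1, which encodes the matrix protein F-spondin, led them at 274, 170 and 255 CPM in tumour bearing mice, against 84.0, 76.9 and 68.3 CPM in EV mice (log2 fold change 1.61 ± 0.28 SE, edgeR adjusted p = 0.0979). The lowest tumour bearing library, mouse 21, was above all 6 others, whose highest was untreated 10 at 140 CPM. Prex1, an activator of the small GTPase Rac in leukocytes and endothelium, was at 31.4, 46.7 and 36.7 CPM in tumour bearing mice, against 18.1, 15.5 and 14.6 CPM in EV mice (1.25 ± 0.22 SE, edgeR adjusted p = 0.107). Untreated mice were at 11 to 13.5 CPM, so the EV and untreated values lay close together and the tumour bearing ones apart.

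Selp, the adhesion receptor P-selectin of activated endothelium and platelets, was at 28.4, 36.5 and 49.5 CPM in tumour bearing mice, against 8.15, 10.8 and 5.42 CPM in EV mice (2.23 ± 0.40 SE, edgeR adjusted p = 0.114). The lowest tumour bearing value was more than the highest of the other 6 libraries, 11.4 CPM in untreated 4. Mapkapk2, the kinase downstream of p38 that stabilizes cytokine mRNAs, was at 244, 204 and 198 CPM in tumour bearing mice, against 98.1, 131 and 92.1 CPM in EV mice (1.01 ± 0.22 SE, edgeR adjusted p = 0.243). Bach1, a repressor of haem oxygenase and other antioxidant genes, was at 41, 37.4 and 46.9 CPM in tumour bearing mice, against 19.4, 22.8 and 21.3 CPM in EV mice. Lrrc8c, a subunit of the volume-regulated anion channel, was at 52.6, 45.8 and 65.0 CPM in tumour bearing mice, against 20.2, 23.0 and 18.6 CPM in EV mice, with untreated 4 between them at 36.7 CPM.

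Pfkm, Pde4dip and Cryab completed the list together with Ankrd33b, and the first 3 are abundant in skeletal muscle as well. Pfkm, the muscle form of phosphofructokinase, was at 117, 189 and 121 CPM in tumour bearing mice, against 44.0, 37.7 and 59.3 CPM in EV mice. Pde4dip, an anchor of phosphodiesterase at the Golgi apparatus and sarcomere, was at 136, 142 and 160 CPM in tumour bearing mice, against 33.7, 40.5 and 33.1 CPM in EV mice. Cryab, a small heat shock protein, was at 45.9, 79.1 and 64.0 CPM in tumour bearing mice, against 14.4, 25.1 and 12.8 CPM in EV mice. Tumour bearing 21, which held the most muscle marker RNA, was the highest of the 3 tumour bearing libraries for Pfkm and Cryab but not for Pde4dip.

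The 9 lower genes beside Palm2 had edgeR adjusted p of 0.154 to 0.289. Each lay below every untreated library, and 4.06% of all genes lay below all 6 EV and untreated libraries. The untreated libraries were part of the fit that gave p, and the tumour bearing values were those used in the choice. The position against untreated mice is therefore no independent support, for the higher genes as well. Cyp2s1, a cytochrome P450 of epithelia, was at 16.1, 16.7 and 18 CPM in tumour bearing mice, against 79.8, 39.4 and 56.0 CPM in EV mice (log2 fold change -1.78 ± 0.35 SE, edgeR adjusted p = 0.154). Cldn1, a tight junction protein, was at 8.60, 7.73 and 6.27 CPM in tumour bearing mice, against 27.7, 13.8 and 25.2 CPM in EV mice. EV 37, without ovary, had the lowest EV value for both.

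Zfp932, Zfp950 and Zfp971, which encode zinc finger proteins, were among these 9. Zfp932 was at 3.77, 5.58 and 3.43 CPM in tumour bearing mice, against 12.3, 11.4 and 12.3 CPM in EV mice (-1.50 ± 0.30 SE, edgeR adjusted p = 0.188). Zfp971 was at 26.6, 27.1 and 21.9 CPM in tumour bearing mice, against 50.01, 42.5 and 47.1 CPM in EV mice. EV 37, without ovary, was close to EV 36 and EV 41 for these genes but not for Zfp950, which was at 6.18, 5.75 and 4.26 CPM in tumour bearing mice, against 32.6, 14.5 and 29.4 CPM in EV mice.

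Six5, a homeobox transcription factor, was at 15.5, 16.1 and 14.1 CPM in tumour bearing mice, against 64.6, 31.6 and 64.7 CPM in EV mice. Kifc2, a kinesin motor, and Acrbp, a proacrosin binding protein best known from sperm, lay at 6.57 CPM or less in tumour bearing mice and at 13.3 CPM or more in EV mice. Hoxd4, a positional homeobox gene, completed the list and is described with its cluster below.

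**Figure D3:**
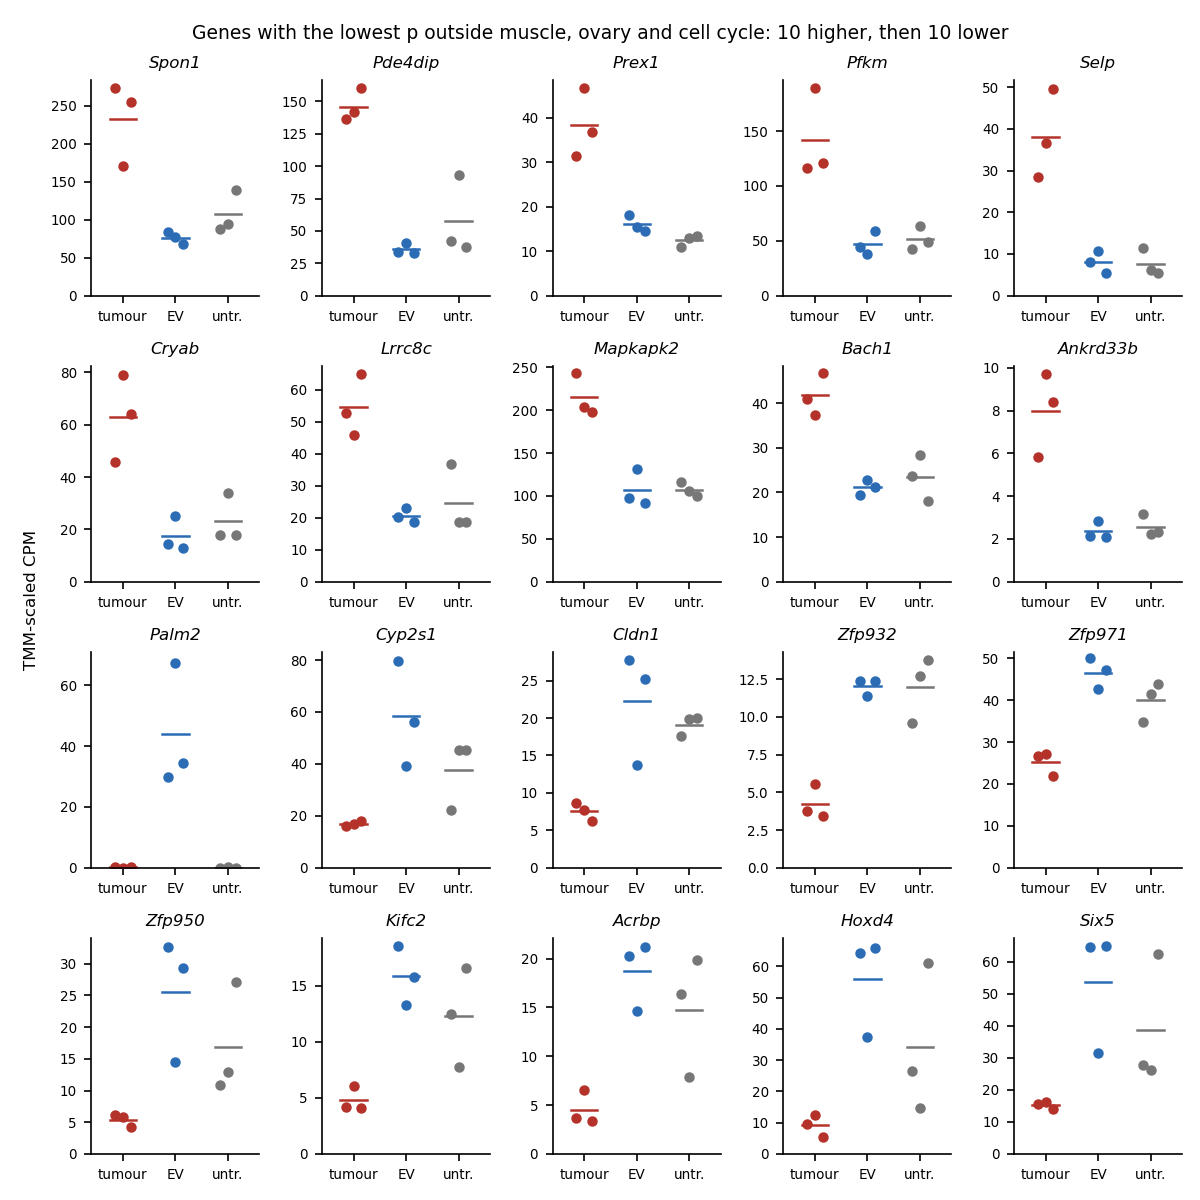
Level in each mouse (points, TMM-scaled CPM, axis from 0) and group mean (line) in tumour bearing, EV and untreated eWAT for the 10 higher and 10 lower genes of lowest p outside skeletal muscle, ovary and cell cycle. In the upper 2 rows every tumour bearing point is above every other point, as with Prex1 at 31.4 CPM or more, and in the lower 2 rows it is below them except for Palm2, which is near 0 in untreated mice as well.

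Among the endothelial genes, 14 of 21 tested lay above all EV libraries (66.7%, against 11.6% of all genes), 0 lay below, and 0 were called by edgeR. Their median log2 fold change was 1.00, against -0.06 over all genes, and against EV 37 alone it was 0.63, with 16 of 21 above EV 37 in all 3 tumour bearing mice (76.2%, against 23.8% of all genes). Against all 6 other libraries, untreated ones included, 9 of 21 were higher, against 3.08% of all genes. Without scaling factors the median was 0.61, when the median of all genes moved by -0.42 to -0.48. The summed level of the 21 genes was 2788, 2750 and 3664 CPM in tumour bearing 17, 21 and 22, against 918, 1884 and 926 CPM in EV 36, 37 and 41 and 2346 CPM in untreated 4.

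Vwf, the clotting factor stored with P-selectin in endothelial granules, was at 170, 117 and 217 CPM in tumour bearing mice, against 46.7, 69.2 and 54.7 CPM in EV mice (1.56 ± 0.40 SE, edgeR adjusted p = 0.353). Flt1, a receptor of vascular endothelial growth factor, was at 180, 87.2 and 207 CPM in tumour bearing mice, against 29.8, 55.0 and 33.7 CPM in EV mice (2.0 ± 0.54 SE, edgeR adjusted p = 0.353). For Vwf the tumour bearing mice were above all 6 others, whereas for Flt1 untreated 4, at 88.8 CPM, was above tumour bearing 21. Tek and Tie1, the angiopoietin receptor and its partner, had tumour bearing values of 49.4 to 91.1 and 72.8 to 91.8 CPM, against EV values of 25.4 to 41.9 and 33.6 to 54.9 CPM. Tumour bearing 21 was the lowest of the 3 tumour bearing mice for these 4 genes and the highest for others of the list, such as Cldn5, a tight junction protein, at 58.8, 87.8 and 72.5 CPM in tumour bearing 17, 21 and 22, and Gpihbp1, the capillary anchor of lipoprotein lipase, at 105, 181 and 148 CPM.

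A pair of venule genes chosen after their values were seen followed Selp. Ackr1, the chemokine receptor that marks venular endothelium, was at 17.6, 41.5 and 21.8 CPM in tumour bearing mice, against 4.13, 6.53 and 3.07 CPM in EV mice (2.56 ± 0.66 SE, edgeR adjusted p = 0.353). Icam1, which leukocytes bind through their integrins, was at 35.6, 76.8 and 69.5 CPM in tumour bearing mice, against 19.7, 29.0 and 18.1 CPM in EV mice (1.45 ± 0.39 SE, edgeR adjusted p = 0.353). In both, the lowest tumour bearing value was above all EV and untreated values, and none passed the test.

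Single genes of interleukin-6 and STAT3 signalling were examined as well, and none passed edgeR's test. Stat3 was at 225, 162 and 288 CPM in tumour bearing mice, against 111, 102 and 104 CPM in EV mice (1.09 ± 0.26 SE, edgeR adjusted p = 0.332, DESeq2 adjusted p = 0.00195). Untreated mice were at 104 to 138 CPM, so the tumour bearing values stood alone. Socs3, the feedback inhibitor that Stat3 induces, was at 20.3, 41.1 and 36.9 CPM in tumour bearing mice, against 15, 10.4 and 10.0 CPM in EV mice (1.47 ± 0.48 SE, edgeR adjusted p = 0.353). The highest of the other 6 was untreated 10 at 15.4 CPM, below each tumour bearing mouse.

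Il6ra, the interleukin-6 receptor, was at 94.9, 102 and 115 CPM in tumour bearing mice, against 28.7, 55.4 and 20.3 CPM in EV mice, and above all untreated values. Il6st, the shared signalling chain gp130, was at 432, 232 and 565 CPM in tumour bearing mice, against 179, 216 and 160 CPM in EV mice, but untreated 7 reached 425 CPM and untreated 4 also overlapped with tumour bearing 21. Lepr, the leptin receptor that also signals through Stat3, overlapped between the groups at 13.1, 13.8 and 22.3 CPM in tumour bearing mice and 26.9, 9.51 and 36.6 CPM in EV mice. Lep itself was at 248, 26.7 and 61.7 CPM in tumour bearing mice and 39.1, 716 and 37.3 CPM in EV mice, where EV 37 alone was far above the rest. Over the 16 genes of leptin and JAK-STAT signalling the median was 0.41, 3 lay above all EV libraries and 1 below, so the list was not far from the 11.6% and 13.4% of all genes. Its median was -0.02 without scaling factors and -0.09 with the term for score sets.

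STAT proteins are known to bind DNA at palindromes of the letters TTCNNNGAA. The sequence was searched on both strands, which is the same for a palindrome, in the RefSeq promoters of build GRCm38.p6, from 250 bases before to 50 after each start, where 8.3% of 32851 promoters and 9.55% of 27025 genes held it. Of the 10 higher genes above, 8 had a promoter in the table and 2 held the motif. Of the 10 lower genes, 8 had one and 1 held it, Hoxd4. Of the 18 genes on the study's topics, 15 had one and 2 held it, Socs3 and Lipe. The 29 bases around each are shown, 5′ to 3′ along the gene, with the motif in capitals, because these are the genes of the STAT3 and higher groups that carry it. The match is a description of the letters only.
Socs3, chr11:117969502-117969530, minus strand: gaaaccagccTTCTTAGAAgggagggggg
Pfkm, chr15:98108227-98108255, plus strand: cacgtttgaaTTCAAGGAAtagcagacaa
Pde4dip, chr3:97768222-97768250, minus strand: aggagagagaTTCCCTGAAaggattgggg

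In the acute phase and inflammatory cytokine list, 9 of 27 tested genes lay above all EV libraries (33.3%, against 11.6% of all genes) and 1 below, with a median of 0.91 against the 3 EV libraries and 0.92 against EV 37 alone. No member was called by edgeR. C3, the central complement component, was at 5744, 7361 and 4642 CPM in tumour bearing mice, against 2204, 2434 and 1296 CPM in EV mice (1.58 ± 0.70 SE, edgeR adjusted p = 0.353). Lrg1, an acute phase glycoprotein made by fat and liver, was at 170, 158 and 172 CPM in tumour bearing mice, against 48.4, 121 and 22.5 CPM in EV mice. Il1r1, the interleukin-1 receptor, was at 33.8, 41.7 and 55.0 CPM in tumour bearing mice, against 27.0, 27.1 and 19.1 CPM in EV mice. In these 3 genes tumour bearing values also exceeded all untreated ones, and Lrg1 and Il6st, like the vessel pair above, were picked after their values were seen.

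**Figure D4:**
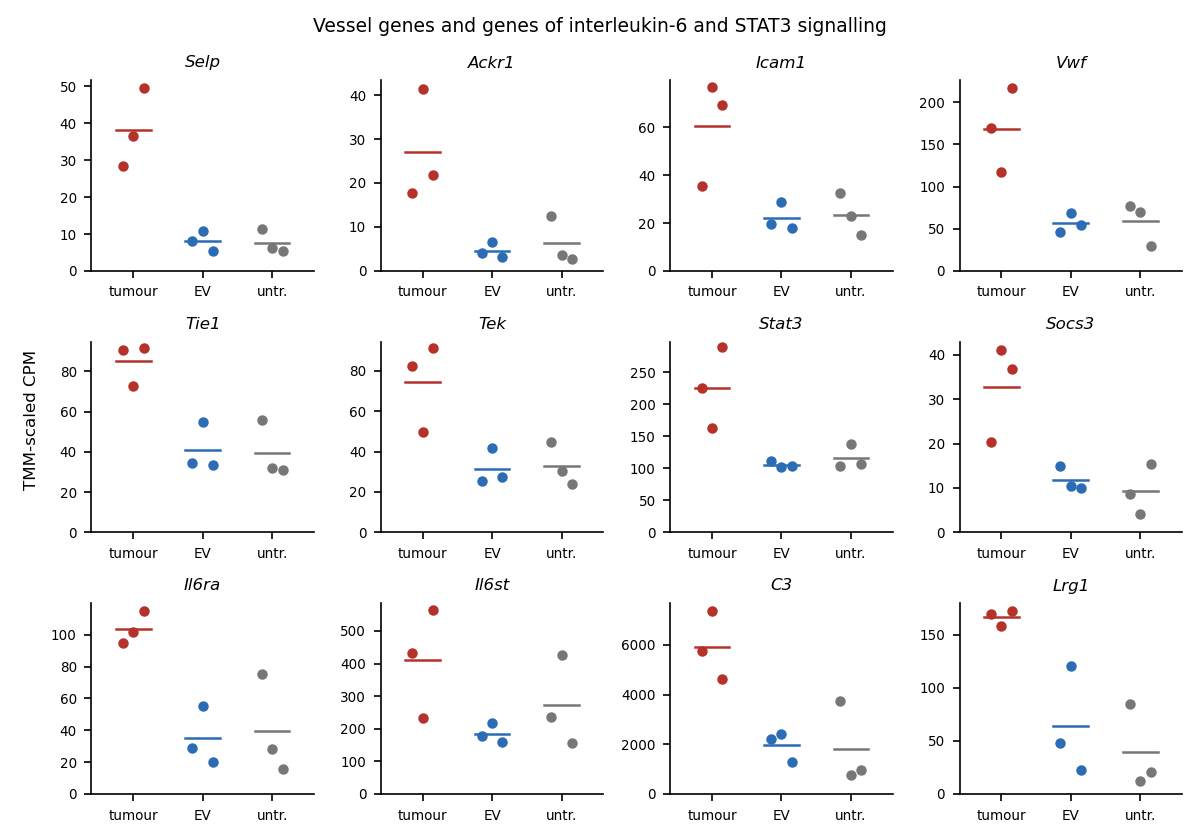
Level in each mouse (points, TMM-scaled CPM, axis from 0) and group mean (line) for vessel genes and genes of interleukin-6 and STAT3 signalling in tumour bearing, EV and untreated eWAT. Tumour bearing points lie above all EV points in each panel, for example at 28.4 CPM or more against 10.8 CPM or less for Selp, and untreated mice 4 and 7 reach them for Il6st.

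Leukocyte genes were uneven, and 1 mouse stood out in many of them. Itgam, the integrin chain of macrophages and neutrophils, was at 50.3, 181 and 62.9 CPM in tumour bearing mice, against 28.3, 29.7 and 11.6 CPM in EV mice (2.08 ± 0.55 SE, edgeR adjusted p = 0.353). Adgre1, the macrophage antigen F4/80, overlapped at 82.3, 357 and 113 CPM in tumour bearing mice and 57.7, 85.3 and 33.5 CPM in EV mice. Tumour bearing 21 was the highest library in both. Of the 20 macrophage genes tested, 5 lay above all EV libraries (25%, against 11.6% of all genes) and 0 below. The median of 1.05 came down to 0.20 against EV 37 alone. Cd14, a receptor for bacterial lipopolysaccharide, and Mrc1, the mannose receptor of resident macrophages, were 2 of the 5, with Itgam, Cd163 and Lyve1. Lyve1 is also on the endothelial list and is counted in both.

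Of the neutrophil genes, 5 of 13 tested lay above all EV libraries (38.5%, against 11.6% of all genes), but their summed level was 34.6, 289 and 61.3 CPM in tumour bearing 17, 21 and 22, against 406, 17.4 and 248 CPM in EV 36, 37 and 41, so that the groups overlapped. The sum was 592 CPM in untreated 10, which held ovary as EV 36 and EV 41 did. The list shares Ltf with a list of oviduct and uterus epithelium, and the part of such tissue in the sum was not tested. S100a9, a calcium binding protein of neutrophil granules, was at 7.92, 67.3 and 18.8 CPM in tumour bearing mice, against 6.64, 1.77 and 1.36 CPM in EV mice. Ngp, a granule protein, was at 0.955, 22.7 and 0.686 CPM in tumour bearing mice, against 0.467, 0.0865 and 0.189 CPM in EV mice. Saa3, an acute phase protein, was at 505 CPM in tumour bearing 21 and at 1.69 and 5.83 CPM in tumour bearing 17 and 22, while EV 36 reached 270 CPM and EV 37 and 41 stayed at 4.84 and 3.94 CPM. Saa3 thus followed single mice and not the groups. S100a9 and Ngp lay above all EV and untreated libraries, with tumour bearing 21 far above the other tumour bearing mice. Of the 13 neutrophil genes, 10 lay above EV 37 in all 3 tumour bearing mice (76.9%, against 23.8% of all genes). Their median was 1.68 against the 3 EV libraries, and 3.41 over the 16 genes tested against EV 37 alone.

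Chemokines gave 4 of 20 genes above all EV libraries (20%, against 11.6% of all genes). Cxcl12, which retains leukocytes in tissues, was at 277, 241 and 464 CPM in tumour bearing mice, against 119, 135 and 109 CPM in EV mice (1.43 ± 0.43 SE, edgeR adjusted p = 0.353). Untreated 4 and 7, at 247 and 255 CPM, were above tumour bearing 21. Ccl8, a monocyte chemokine of resident macrophages, was at 39.4, 44.0 and 100.01 CPM in tumour bearing mice, against 8.22, 18.4 and 2.69 CPM in EV mice. Cxcl13, which guides B cells, was at 943 CPM in tumour bearing 21 alone, with 18.7 and 11.5 CPM in the other tumour bearing mice and 3.18 to 23.4 CPM in EV mice.

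Rac activators, the family of Prex1, had 3 of 19 members above all EV libraries (15.8%), a share near the 11.6% of all genes. Dock2 and Vav1, which activate Rac in leukocytes, were at 23.1 to 29.9 and 10.8 to 35.6 CPM in tumour bearing mice, against 4.55 to 15 and 3.45 to 9.81 CPM in EV mice. Rac2, the leukocyte form of Rac, overlapped with EV mice because tumour bearing 17, at 15.6 CPM, was below EV 37 at 16.9 CPM.

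Interferon-stimulated and antigen presentation genes varied among the EV libraries. Of 31 genes, 0 lay above or below all EV libraries and 0 were called. Their median was 0.52 against the 3 EV libraries and -0.41 against EV 37 alone. Below EV 37 in all 3 tumour bearing mice lay 18 of 31 (58.1%, against 24.5% of all genes).

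Glucocorticoid-responsive genes had a positive log2 fold change in 21 of 21 cases with a median of 1.21, and 0 were called by edgeR. Of the 21, 8 lay above all EV libraries (38.1%, against 11.6% of all genes), and 2 above the untreated libraries as well (9.52%, against 3.08%). Pdk4, the kinase that turns off pyruvate oxidation in fasting, was at 200, 893 and 381 CPM in tumour bearing mice, against 45.3, 87.6 and 45.3 CPM in EV mice (3.05 ± 0.81 SE, edgeR adjusted p = 0.353), and above all untreated values. Pdk4 is also strongly expressed in muscle. Errfi1, a feedback inhibitor of growth factor receptors, was at 580 CPM in tumour bearing 21 but at 42.0 and 72.3 CPM in tumour bearing 17 and 22, against 71.3, 75 and 46.5 CPM in EV mice. Without tumour bearing 21 the median of the list was 0.46, and against EV 37 alone it was 0.655. In all 3 tumour bearing mice 10 of 21 lay above EV 37 (47.6%, against 23.8% of all genes). Fkbp5, Tsc22d3 and Per1 were among the members that overlapped between the groups. Mt2, a metallothionein, was at 708 CPM in tumour bearing 21 and at 121 and 159 CPM in tumour bearing 17 and 22, against 122 to 133 CPM in EV mice.

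Tumour bearing 21 also stood apart in the immediate early genes, which cells switch on within minutes of a stimulus. Fos was at 355 CPM there, against 3.32 and 8.18 CPM in tumour bearing 17 and 22 and 10.0 to 18.3 CPM in EV mice. Nr4a3, an orphan nuclear receptor, was at 4.27, 88.3 and 18.9 CPM in tumour bearing mice, against 1.15, 1.17 and 2.05 CPM in EV mice, and untreated 4 was at 14.7 CPM. The median of the immediate early and heat shock list was 0.63, and 0.10 without tumour bearing 21. The deposited score columns of tumour bearing 21 belonged to the same set as those of the EV libraries, and tumour bearing 17 and 22 to a set of their own, so that a fit with a term for these sets compares tumour bearing 21 alone with the EV libraries. In that fit the median of the list was 1.04, and edgeR called 2 of its genes, Fosb at an adjusted p of 0.0284 and Junb at 0.0496, both subunits of AP-1 transcription factors.

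Adipocyte genes followed Adipoq among the EV libraries. Over 22 adipocyte identity genes the median was 0.89, and against EV 37 alone it was -0.17. Of the 22, 5 lay above all EV libraries (22.7%, against 11.6% of all genes). Pnpla2, the triglyceride lipase ATGL, was at 3413, 4216 and 3547 CPM in tumour bearing mice, against 709, 3164 and 766 CPM in EV mice (1.27 ± 1.17 SE, edgeR adjusted p = 0.573). Lipe, hormone-sensitive lipase, was at 2513, 2253 and 2162 CPM in tumour bearing mice and overlapped with 434, 2480 and 659 CPM in EV mice. For both, EV 37 lay beside the tumour bearing mice, and the 24 lipolysis genes had a median of 0.78 against the 3 EV libraries but -0.09 against EV 37.

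Lipid synthesis genes kept a difference from EV 37. Of 26 genes of lipogenesis and triglyceride synthesis, 9 lay above all EV libraries (34.6%, against 11.6% of all genes) and 0 lay below. In all 3 tumour bearing mice 14 lay above EV 37 (53.8%, against 23.8% of all genes). The median was 0.77, and 0.61 against EV 37 alone. In the fit of all 9 libraries edgeR called 0 of the 26. Above all 6 EV and untreated libraries lay 1 of 26 (3.85%, against 3.08% of all genes). The summed level was 80790, 79110 and 45880 CPM in tumour bearing mice, against 22680, 35200 and 35230 CPM in EV mice. In untreated 4 it was 110100 CPM. Acaca, the acetyl-CoA carboxylase of fatty acid synthesis, was at 3973, 2558 and 2694 CPM in tumour bearing mice, against 746, 856 and 1371 CPM in EV mice (1.63 ± 0.97 SE, edgeR adjusted p = 0.415). Acacb, its mitochondrial form, was at 671, 673 and 724 CPM in tumour bearing mice, against 158, 219 and 236 CPM in EV mice (1.75 ± 0.87 SE, edgeR adjusted p = 0.365, and 0.0398 in the fit of these 6 libraries only). For both, untreated 4, at 3602 and 616 CPM, was near the tumour bearing mice, and the other untreated mice, poor in fat, were at 460 CPM or less.

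Gpam, which adds the first fatty acid to glycerol phosphate, was at 1003, 643 and 782 CPM in tumour bearing mice, against 328, 370 and 423 CPM in EV mice (1.11 ± 0.44 SE, edgeR adjusted p = 0.353). Lpin1, a phosphatidate phosphatase of the same route, was at 725, 671 and 777 CPM in tumour bearing mice, against 99.4, 336 and 138 CPM in EV mice. Neither overlapped with EV mice, and for both untreated 4 was within the tumour bearing range.

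Mitochondrial genes showed the same direction with small differences. All 76 nuclear genes of oxidative phosphorylation had a positive log2 fold change, 53 of them lay above all EV libraries (69.7%, against 11.6% of all genes), and 0 were called. The median was 0.70, against 0.22 for EV 37 alone and 0.33 without scaling factors. Skeletal muscle markers stood apart in the same tumour bearing libraries. The part of muscle in the values of this paragraph and the next was not tested. Ndufb11, a complex I subunit, was at 197, 187 and 169 CPM in tumour bearing mice, against 95.8, 142 and 107 CPM in EV mice (0.68 ± 0.28 SE, edgeR adjusted p = 0.353). EV 37 lay between EV 36 and EV 41 below and the tumour bearing mice above. Of the 76, 4 were above untreated 4, 7 and 10 as well (5.26%, against 3.08% of all genes). The summed level was 20120, 21500 and 18140 CPM in tumour bearing 17, 21 and 22, against 8819, 16410 and 10350 CPM in EV 36, 37 and 41 and 22330 CPM in untreated 4.

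Fatty acid uptake and oxidation gave 17 of 35 genes above all EV libraries (48.6%, against 11.6% of all genes), with a median of 0.85 and 0.23 against EV 37 alone. Only 1 of the 35 lay above all 6 EV and untreated libraries (2.86%, against 3.08% of all genes). Ehhadh, a peroxisomal oxidation enzyme, was at 90.6, 132 and 90.6 CPM in tumour bearing mice, against 20.5, 43.7 and 25.6 CPM in EV mice and 136 CPM in untreated 4. The 13 mitochondrially encoded mRNAs had a median of 0.91, and 0.12 without tumour bearing 21. mt-Co1, a cytochrome c oxidase subunit, was at 57746 CPM in that mouse, against 27230 and 21773 CPM in the other tumour bearing mice, 14422 to 25257 CPM in EV mice and 56845 CPM in untreated 4.

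**Figure D5:**
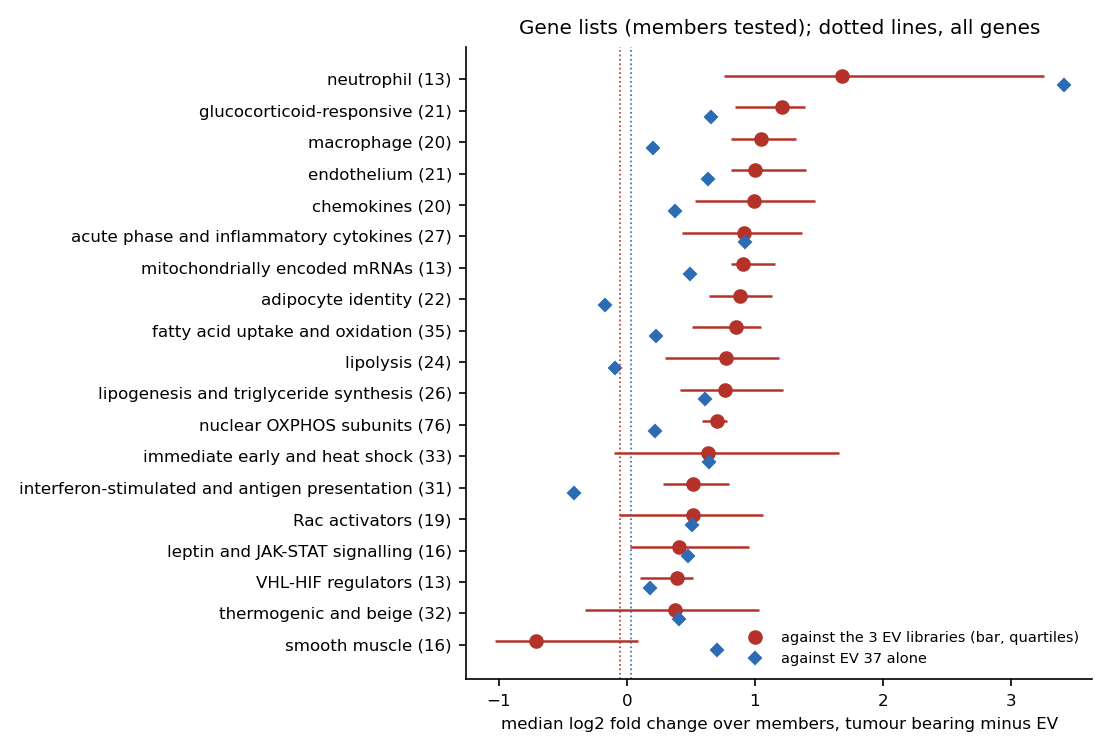
Median log2 fold change (tumour bearing minus EV) over the tested members of 19 gene lists, against the 3 EV libraries (circles, bars from lower to upper quartile) and against EV 37 alone (diamonds), with the medians of all genes as dotted lines and the number of members in brackets. Endothelium stays at 0.63 and lipogenesis at 0.61 against EV 37, whereas adipocyte identity, lipolysis and interferon-stimulated genes come to -0.17, -0.09 and -0.41.

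Of 18 genes on the study's topics (leptin and STAT3 signalling, VHL and HIF, thermogenesis, lipolysis and others), some named by the study and others, Socs3 among them, added for this comparison, 5 lay above all EV libraries (27.8%, against 11.6% of all genes) and 0 were called. The list was drawn up with the study's results known and is no independent evidence. The 5 were Stat3, Socs3, Pnpla2, Ndufv1 and Ppargc1a. Ppargc1a, a coactivator that raises mitochondrial content, had 8.88, 23.8 and 5.68 CPM in tumour bearing mice, against 2.48, 3.8 and 3.49 CPM in EV mice (1.97 ± 0.63 SE, edgeR adjusted p = 0.353), and its relative Ppargc1b was at 9.89, 13.2 and 8.38 CPM against 1.76, 4.11 and 1.97 CPM. Both lay above all untreated values, and both are expressed in muscle too.

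Ucp1, the uncoupling protein of thermogenic fat, overlapped between the groups, at 7.87, 44.0 and 27.6 CPM in tumour bearing mice and 0.933, 24.5 and 136 CPM in EV mice (-1.03 ± 1.78 SE, edgeR adjusted p = 0.766). Its log2 fold change turned to 0.60 with limma-voom and to 0.11 against EV 37 alone. Cidea, a lipid droplet protein of beige fat, was at 64.4, 141 and 128 CPM in tumour bearing mice and 17.3, 88.4 and 58.2 CPM in EV mice, and tumour bearing 17 overlapped with EV 37. Prdm16, a regulator of beige fat, and Dio2, which makes active thyroid hormone, overlapped as well. Of 32 thermogenic and beige genes 6 lay above all EV libraries (18.8%, against 11.6% of all genes). The 1 that was called, Ckmt2, is a muscle creatine kinase and belongs to the skeletal muscle list.

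Vhl, which marks HIF proteins for destruction, was at 27.1, 25.3 and 23.0 CPM in tumour bearing mice and 26, 35.4 and 24.5 CPM in EV mice (-0.19 ± 0.21 SE, edgeR adjusted p = 0.637). Hif1a, its target protein's gene, was at 102, 83.8 and 107 CPM in tumour bearing mice and 108, 77.9 and 110 CPM in EV mice (-0.01 ± 0.32 SE, edgeR adjusted p = 0.985), and its sign changed under several settings. In both the groups overlapped. Epas1, which encodes HIF2α and is rich in endothelium, was at 517, 433 and 593 CPM in tumour bearing mice, against 188, 371 and 178 CPM in EV mice and 508 CPM in untreated 4. Arnt, the partner of both HIF proteins, was at 72.2, 69.1 and 87.8 CPM in tumour bearing mice against 54.2, 53.3 and 56.5 CPM in EV mice. Egln2 and Egln3, oxygen-sensing hydroxylases, and Cul2, the ligase scaffold of Vhl, were the others of the 5 of 13 VHL-HIF regulators above all EV libraries (38.5%, against 11.6% of all genes). The median of the 13 was 0.39, and -0.01 without scaling factors. Rab27a, needed for vesicle release, Vcl, a cell adhesion protein, and Adrb3, the adrenergic receptor of fat cells, overlapped between the groups.

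Genes that record the position of a tissue in the body formed the last group, chosen after their values were seen. Hox genes, which are arranged in 4 clusters, had 14 of 31 tested members below all EV libraries (45.2%, against 13.4% of all genes) and 0 above. All 8 Hoxb genes and all 6 Hoxd genes had a negative log2 fold change, and 7 of 8 and 5 of 6 lay below every EV library, whereas 0 of 10 Hoxa genes did. Hoxd4 was at 9.50, 12.4 and 5.53 CPM in tumour bearing mice, against 64.4, 37.3 and 66.0 CPM in EV mice and 14.6 to 61.2 CPM in untreated mice (-2.61 ± 0.56 SE, edgeR adjusted p = 0.233). Hoxd10 was at 0.281, 0.407 and 0.392 CPM in tumour bearing mice, against 8.94, 1.12 and 12.2 CPM in EV mice. Hoxd3 had 0 counts in all 3 tumour bearing mice and was at 3.27, 0.908 and 2.05 CPM in EV mice and 0.675 to 4.57 CPM in untreated mice. EV 36 and EV 41 were the highest EV libraries for these genes, and EV 37 was still above each tumour bearing mouse.

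Tbx15 and Alx4, which pattern limb and body wall and, in mouse fat, mark subcutaneous pads and some muscle, lay on the other side. Tbx15 was at 2.14, 9.53 and 2.94 CPM in tumour bearing mice and at 0.108 CPM or less in EV mice (edgeR adjusted p = 0.0979). Alx4 was at 5.23, 2.5 and 7.93 CPM in tumour bearing mice, against 0.0359, 0.303 and 0.227 CPM in EV mice (4.76 ± 0.84 SE, edgeR adjusted p = 0.102). Wt1, which marks visceral fat and mesothelium, was at 32.3, 35 and 29.2 CPM in tumour bearing mice, against 81.6, 55.3 and 74.6 CPM in EV mice, and at 31.4 CPM in untreated 4. The tumour bearing libraries thus held Wt1 at the level of the fat-rich untreated library. Which fat or other tissue gave the Tbx15 and Alx4 reads was not tested.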

How the data were processed

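The authors deposited expected counts per gene, made per the study's methods with SeqPrep, Sickle, HISAT2, StringTie and RSEM. The submitters' notes name Bowtie 0.12.2 with mm8 and mm9, and the labels both a TruSeq and a SMARTER kit. The deposited columns named TPM did not hold plain TPM and were used only as a score. They fell into 3 sets of libraries (tumour bearing 17 and 22, untreated 7, and the other 6). Gene IDs (52093 of 53700) were named from the reference table.

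The counts of all 9 libraries were rounded and fitted in 1 edgeR model (version 4.0.16, R 4.3.3) with a group term, after filterByExpr and with TMM factors of 0.756 to 1.32. Benjamini-Hochberg adjustment ran over all 17860 genes, and the biological coefficient of variation was 62.8%. SE is the absolute log2 fold change over the square root of F. DESeq2 1.42.0 and limma 3.58.1 served as alternatives, besides other scalings, filters and samples, and the fit was tested on simulated data. Members and lists were chosen with earlier results of these data known. Named genes were those called outside the 3 lists with at least 5 CPM, at most 15 per direction, filled to 10 per direction by p among genes that did not overlap, for each described list at most its 4 lowest-p members, 18 genes on the study's topics and defining markers. Intervals and SEs do not cover differences in dissection.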

Additional observations from a re-analysis of the deposited data

Results flagged for a closer look

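In the deposited score columns, which no comparison uses, tumour bearing 17 and tumour bearing 22 held 635 and 558 genes with 0 counts but a score above 1, more than tumour bearing 21 with 123 and the EV libraries with 75 to 176. The untreated libraries had 106 to 322. Genes with 0 counts in both libraries of a pair had the same score in 100% of cases between tumour bearing 17 and 22, and in 0.069% to 0.109% between tumour bearing 17 and tumour bearing 21 or EV 37.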

How the results depend on the processing

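No paired analysis was possible because the groups share no replicate number. edgeR called 40 genes higher and 1 lower, 2 and 1 outside muscle, ovary and cell cycle. These counts became 26 higher and 0 higher outside without scaling factors, 244 higher, 637 lower, and 126 and 535 outside with DESeq2, and 97 higher, 5 lower, and 10 and 5 outside with only the tumour bearing and EV libraries. Without a filter 2 genes were lower, both outside. With all gene IDs 5 were higher outside and 2 lower, both outside. Against EV 37 alone, without EV 36 and 41, all 4 counts were 0 (247 genes at an unadjusted p under 0.05). With the term for score sets, which compares tumour bearing 21 alone with the EV libraries, 25 were higher and 0 lower. Of these 4 and 0 were outside (Fosb, Fcrls, Pik3ap1 and Junb, while Kcnj11, AC121821.1 and Palm2 lost their calls). Without IDs that repeat EV counts 0 were lower, in all and outside. Leaving out 1 library at a time gave 0 to 62 higher and 0 to 1 lower, and 0 to 3 and 0 to 1 outside. Without EV 36 no gene was called (962 at an unadjusted p under 0.05), and without EV 41 edgeR called 2. Without tumour bearing 17, 21 or 22 it called 16, 11 and 9, and without EV 37 it called 11. Of 2078 alternative fold changes of 104 genes, 1969 kept direction and call, and 26 changed sign. Against EV 37 alone the log2 fold change was 0.33 for Hif1a, 0.11 for Ucp1, 0.55 for Rab27a, 0.79 for Lepr, -0.10 for Lipe, -0.28 for Adipoq, 0.66 for Cyp11a1 and 1.02 for Myh11. It was 0.60 for Ucp1 and 0.14 for Adrb3 with limma-voom, 0.017 for Hif1a without a filter, -0.11 for Dio2 without scaling factors, and -0.11 for Vcl with the term for score sets. Without a filter the log2 fold change of Adrb3 was 0.00401. With 1 library left out at a time values ranged from -2.58 to 1.56 for Lep, -0.28 to 0.00025 for Vhl, -0.15 to 0.093 for Hif1a, -1.60 to 1.06 for Ucp1, -0.74 to 1.09 for Dio2, -0.67 to 0.18 for Rab27a, -0.39 to 1.22 for Adrb3, -0.16 to 2.35 for Errfi1 and -1.18 to 3.802 for Fos. The cause was not tested.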

Other observations

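Genes with symbols starting Zfp, most of which encode zinc finger proteins, lay low in tumour bearing eWAT as a family. Of 387 tested, 125 lay below all EV libraries (32.3%, against 13.4% of all genes) and 7 above (1.81%, against 11.6%). Below the untreated libraries as well lay 64 (16.5%, against 4.06% of all genes). Below EV 37 in all 3 tumour bearing mice lay 149 (38.5%, against 24.5%). Their median log2 fold change was -0.50, against -0.06 over all genes, and 0 were called by edgeR. The family was chosen after its values were seen.

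Imprinted growth genes, also chosen after their values were seen, lay apart in different directions. H19 was at 50.6, 62.7 and 57.5 CPM in tumour bearing mice, against 12.7, 0.865 and 10.5 CPM in EV mice, and above all untreated values (edgeR adjusted p = 0.353). Igf2, the growth factor beside it, was at 33.2, 30.4 and 47.1 CPM in tumour bearing mice, against 12.5, 14.4 and 11 CPM in EV mice, with untreated 7 at 38.6 CPM. Meg3, a noncoding RNA of another imprinted locus, was at 14.9, 76.2 and 11.7 CPM in tumour bearing mice, against 185, 132 and 149 CPM in EV mice, and untreated 7 was at 26.8 CPM. Skeletal muscle markers stood apart in the same tumour bearing libraries, and the part of muscle in the H19 and Igf2 values was not tested.

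Mesothelial genes differed from EV 37 alone, with 12 of 14 below it in all 3 tumour bearing mice (85.7%, against 24.5% of all genes). Below all EV libraries lay 3 of 14 (21.4%, against 13.4% of all genes).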
